A study of Mus musculus with 7 samples.

Results

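Around the transcription start sites (TSSs) of 5 factors of the naive pluripotency network, Esrrb, Nr5a2, Tfcp2l1, Tbx3 and Zfp42, chromatin accessibility was compared between wild-type (WT) and Smad2/3 double-knockout (DKO) epiblast-like cells (EpiLCs). Every ATAC-seq site with a midpoint within 50 kb of a curated RefSeq TSS of these genes was taken, which gave 24 of the 75880 sites listed: 5 at Esrrb, 4 at Nr5a2, 2 at Tfcp2l1, 3 at Tbx3 and 10 at Zfp42. Position alone chose the sites at these genes, while the genes were chosen with earlier results of these data known. ATAC-seq uses the Tn5 transposase to insert adapters into open DNA, so reads accumulate over accessible regulatory elements. EpiLCs were grown from mouse embryonic stem cells (ESCs) of strain 129/Sv//Ev, held in PD0325091 (as the labels spell it), CHIR99021 and LIF, by 48 h in Fgf2 (12 ng/ml) and activin A (20 ng/ml), and were harvested at day 2. WT cells were the CCE line and DKO cells were a single clone, in which exon 1 of Smad3 had been deleted in ESCs homozygous for the targeted allele Smad2 tm1Rob. Each genotype had 3 differentiations, and tagmented WT genomic DNA served as a control for Tn5. Since each genotype is 1 clone, effects of genotype and of clone cannot be told apart.

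The measurement is the authors' concentration, the log2 of the mean normalized reads at a site over the 3 differentiations of a genotype. The 2 genotypes therefore have 1 value each per site, the depth and spread of the libraries are not known here, and no test of the genotypes was run. A difference is the DKO minus the WT concentration. A site is called higher or lower when this passes 1.5-fold (0.585 on the log2 scale), and a difference is read against the differences of all listed sites of like concentration. As a check of the labels, the Smad3 promoter site, 221 bp from the TSS, had a concentration of 5.42 in WT and -0.10 in DKO, the lowest listed, whereas the site at the Smad2 TSS had 8.35 and 8.28 and does not show the Smad2 allele. Sites whose borders came within 1 kb of a TSS were listed for 6 of 6 EpiLC marker genes (WT concentrations 5.66 to 7.71), and also for 3 of 3 endoderm, 3 of 3 trophoblast and 3 of 3 fibroblast markers, so such sites did not separate cell types here.

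The naive state is that of the preimplantation epiblast and of ESCs held in inhibitors and LIF. Esrrb and Nr5a2 are orphan nuclear receptors that bind closely related DNA sequences. Tfcp2l1 is a transcription factor of the CP2 family that acts downstream of LIF and Stat3, Tbx3 is a T-box factor that can sustain self-renewal, and Zfp42, also called Rex1, is a zinc finger protein whose expression is widely used to mark naive cells. Transcripts of these factors decline as cells pass to the primed state, which EpiLCs model, and activin and Nodal signal through Smad2 and Smad3 in primed cells.

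At all 5 genes the site nearest to the TSS differed little between WT and DKO EpiLCs, with differences of -0.05 to 0.07. Away from the TSSs, 7 of the 24 sites were more accessible in DKO by over 1.5-fold, at Nr5a2, Tfcp2l1, Tbx3 and Zfp42, and 2 were less accessible, at Esrrb and Zfp42. Over all listed sites, 8.51% were higher and 16.0% lower by this rule, against 29.2% and 8.33% of the 24. The largest difference upward was in an intron of Tfcp2l1 (2.62-fold) and the largest downward lay upstream of Zfp42 (2.38-fold lower). The median difference over the 24 sites was 0.18, and -0.08 over all listed sites.

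The sequences of 5 sites are given from RefSeq GRCm38.p6, the assembly named mm10, on the plus strand and 5′ to 3′. The first is the site with the largest difference upward, the second a site higher in DKO with matches to 2 of the motif strings searched in the bases shown, and the third the most accessible site of the 24, which was nearly equal in both genotypes. Capitals in these 3 mark the motif matches. The longer sites are shown over 300 bases, chosen within the site to hold the most matches.
Tfcp2l1, intron, 20.3 kb downstream of the TSS, chr1:118648121-118648420: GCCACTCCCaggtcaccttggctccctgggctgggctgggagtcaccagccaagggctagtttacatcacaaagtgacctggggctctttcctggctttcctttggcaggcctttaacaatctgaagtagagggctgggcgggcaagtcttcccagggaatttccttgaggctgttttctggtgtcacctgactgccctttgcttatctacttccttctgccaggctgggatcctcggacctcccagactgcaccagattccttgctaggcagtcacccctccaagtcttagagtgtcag
Tbx3, intergenic, 38.8 kb downstream, chr5:119709861-119710160: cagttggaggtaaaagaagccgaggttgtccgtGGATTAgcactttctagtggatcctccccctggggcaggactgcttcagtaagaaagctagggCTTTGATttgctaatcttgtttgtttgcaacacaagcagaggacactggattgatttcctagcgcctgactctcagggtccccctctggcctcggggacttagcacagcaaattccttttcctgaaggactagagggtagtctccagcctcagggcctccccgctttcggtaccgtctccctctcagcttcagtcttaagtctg
Zfp42, TSS, chr8:43306966-43307265: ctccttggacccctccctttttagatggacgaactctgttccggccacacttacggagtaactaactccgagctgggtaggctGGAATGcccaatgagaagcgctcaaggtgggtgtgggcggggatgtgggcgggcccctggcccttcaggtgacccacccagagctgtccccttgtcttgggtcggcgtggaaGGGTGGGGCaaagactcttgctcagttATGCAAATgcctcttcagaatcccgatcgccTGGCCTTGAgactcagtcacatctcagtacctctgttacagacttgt
The last pair are the less accessible sites, printed whole. Neither holds a match, and the capitals mark CG dinucleotides, of which the Esrrb site has 15 and the Zfp42 site 5.
Esrrb, intron, 18.8 kb upstream of the second TSS, chr12:86402760-86402990: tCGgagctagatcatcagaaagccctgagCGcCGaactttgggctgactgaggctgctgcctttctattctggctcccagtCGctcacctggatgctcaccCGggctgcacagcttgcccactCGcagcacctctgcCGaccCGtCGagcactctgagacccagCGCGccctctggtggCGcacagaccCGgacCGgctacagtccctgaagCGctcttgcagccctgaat
Zfp42, intergenic, 31.8 kb upstream of the TSS, chr8:43338670-43338950: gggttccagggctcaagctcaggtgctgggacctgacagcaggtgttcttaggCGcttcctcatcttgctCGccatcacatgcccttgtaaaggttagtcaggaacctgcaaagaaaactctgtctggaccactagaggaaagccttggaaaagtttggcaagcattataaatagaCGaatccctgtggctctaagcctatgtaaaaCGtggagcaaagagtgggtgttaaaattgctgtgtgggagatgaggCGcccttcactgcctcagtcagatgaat

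**Figure D1:**
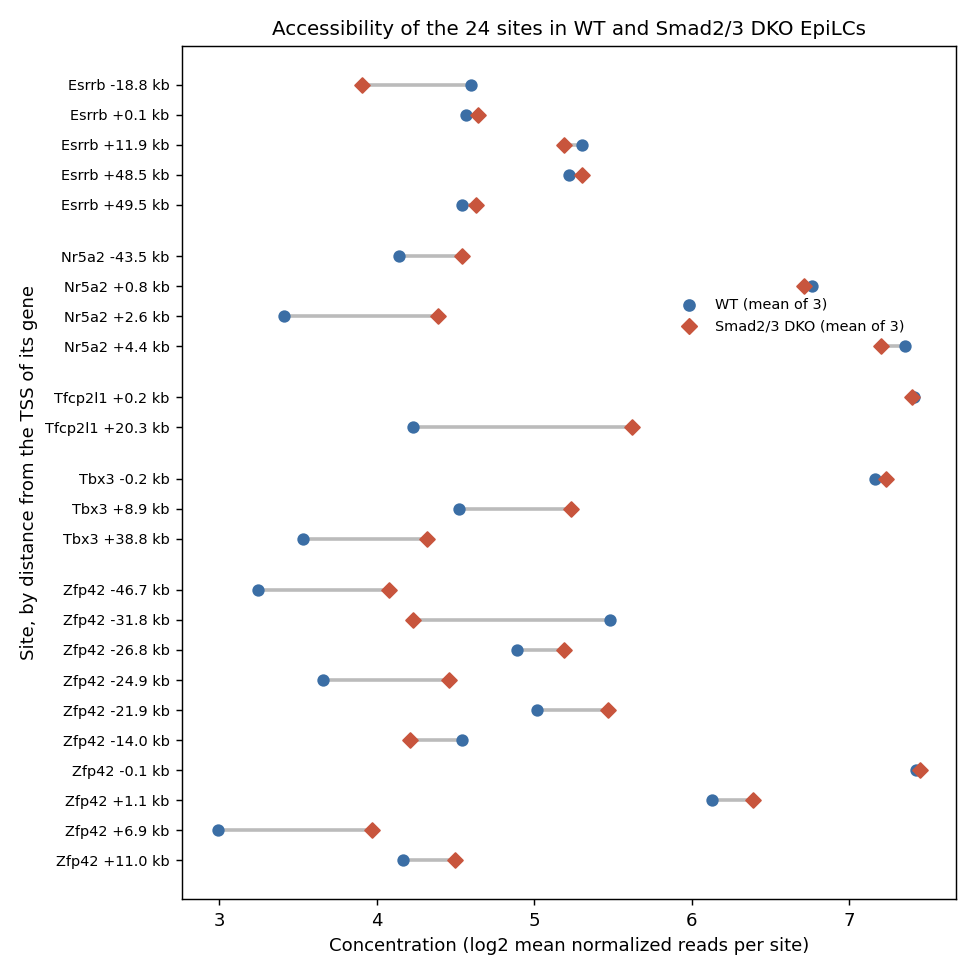
Concentration (log2 mean normalized reads per site) of each of the 24 sites in WT (circles) and Smad2/3 DKO (diamonds), each the authors' mean of 3 differentiations, with no error available. Sites are named by gene and distance from its TSS in kb, negative upstream. The pairs at the TSSs lie close together, and the longest bars are those at Tfcp2l1 20.3 kb downstream (4.23 to 5.62) and Zfp42 31.8 kb upstream (5.48 to 4.23).

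Esrrb, the first of the nuclear receptors (chromosome 12, 86361117 to 86521628, plus strand) has 2 curated TSSs, and the upstream one lay 41758 bp from the nearest listed site. The site over the downstream TSS, in the untranslated part of an exon (86421430 to 86421970), had a concentration of 4.57 in WT and 4.64 in DKO. The Esrrb site of highest concentration, 48.5 kb downstream (86469890 to 86470340), had 5.22 and 5.30. Its midpoint lies in an intron, and the site overlaps an exon of Esrrb. Per kb of site it had 82.8 mean normalized reads in WT, fewer than the intronic site 11.9 kb downstream (135.9). An intronic site between the TSSs, 18.8 kb upstream of the second (86402760 to 86402990), had 4.60 in WT and 3.91 in DKO, a difference of -0.69. This was the only Esrrb site past the fold, and 16.7% of the 22164 listed sites within 0.5 of its mean concentration were at least as far down. The other 2 sites, also intronic, differed by -0.11 and 0.09. None of the 5 listed sites within 50 kb of an Esrrb TSS was higher in DKO by over 1.5-fold, beside 8.51% of all listed sites. With so few sites at that share, this does not set Esrrb apart.

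Nr5a2 (chromosome 1, 136843584 to 136960448, minus strand) also has 2 TSSs, and neither is covered by a listed site. Its strongest site, 4.4 kb into the gene from the downstream TSS (136948690 to 136949680), had a concentration of 7.35 in WT and 7.20 in DKO. The site nearest to a TSS, 0.8 kb downstream (136952280 to 136953450), had 6.76 and 6.71. Between these and the upstream TSS, a weaker intronic site 2.6 kb downstream of that TSS (136957690 to 136958030) had 3.41 in WT and 4.39 in DKO. Its difference of 0.98 was reached by 4.78% of the 20333 listed sites of like concentration. The intergenic site 43.5 kb upstream (137003850 to 137004090) had 4.14 and 4.54, a difference of 0.40 that did not pass the fold. Within 50 kb, the pair of strongest Nr5a2 sites thus differed by at most 0.15, and the site that was higher in DKO had the lowest mean concentration of the 4.

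Tfcp2l1 (chromosome 1, 118627945 to 118685168, plus strand) had only 2 sites. The site over the TSS (118627660 to 118628590) had 7.41 in WT and 7.40 in DKO. The site in an intron 20.3 kb downstream (118648080 to 118648480) had a concentration of 4.23 in WT and 5.62 in DKO, or 18.8 and 49.2 mean normalized reads. This difference of 1.39 was reached by 0.377% of the 20135 listed sites within 0.5 of its mean concentration of 5.09, the smallest such share among the 24 sites. Per kb of site, accessibility here went from 46.9 to 123.0 reads, while the TSS site had 182.9 and 181.6.

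Tbx3 (chromosome 5, 119670862 to 119684724, plus strand) had 3 sites, all with differences above 0, as had 31566 of all 75880 listed sites. The site over the first of its 2 TSSs (119670170 to 119671190) had 7.16 in WT and 7.23 in DKO. A site 8.9 kb downstream, in an intron of Tbx3 (119679900 to 119680390), had 4.52 in WT and 5.23 in DKO, a difference of 0.71. The third, intergenic and 38.8 kb downstream (119709820 to 119710200), had 3.53 and 4.32, a difference of 0.79. Shares of 4.41% and 8.10% of listed sites of like concentration were as far up. The TSSs nearest to these sites are those of the neighbouring noncoding genes Tbx3os1 and Tbx3os2, so they could equally be assigned to those genes.

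Zfp42 (chromosome 8, 43295067 to 43307009, minus strand) had the most sites, and 8 of its 10 differences were above 0, beside 17 of 32 at 50 kb to 1 Mb from its TSS. The site over its TSS (43306830 to 43307400) was the strongest of the 24, with 7.42 in WT and 7.45 in DKO. Within the gene, the intronic site 6.9 kb downstream (43300020 to 43300210) had 2.99 in WT and 3.97 in DKO. Upstream and intergenic, the sites at 24.9 kb (43331760 to 43332030) and 46.7 kb (43353640 to 43353820) had 3.66 and 3.25 in WT and 4.46 and 4.08 in DKO. These 3 sites were higher in DKO by 0.98, 0.80 and 0.83, differences reached by 7.61%, 6.88% and 9.10% of listed sites of like concentration. Between them, at 31.8 kb upstream (43338670 to 43338950), the order was opposite: the concentration was 5.48 in WT and 4.23 in DKO. That difference of -1.25 was reached by 2.45% of 20737 like sites. The other 5 Zfp42 sites had differences of -0.33 to 0.45, and include a site in the coding exon with 4.17 and 4.50. The median over the 10 sites was 0.32, so the Zfp42 locus holds weak sites that were higher in DKO on either side of 1 stronger site that was lower.

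**Figure D2:**
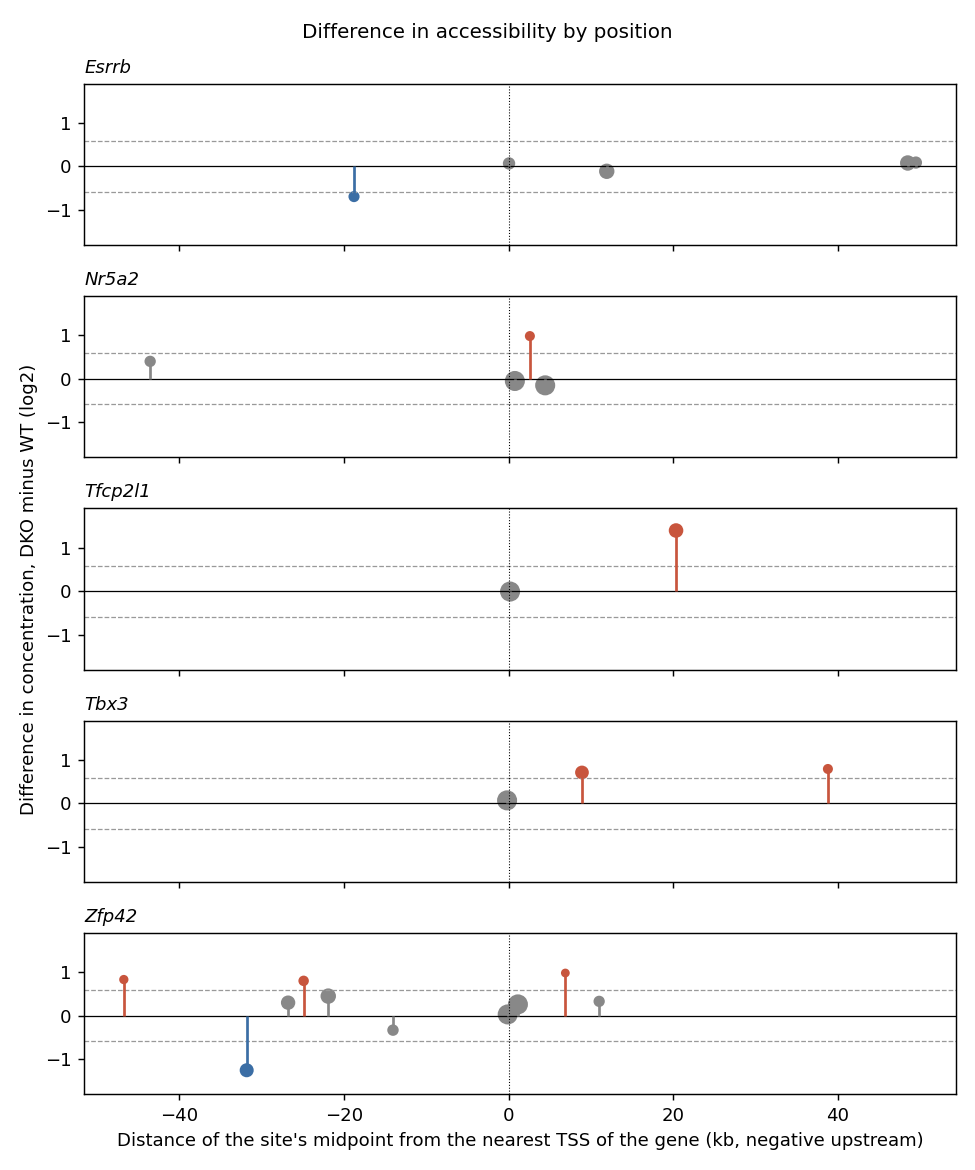
Difference in concentration (log2, Smad2/3 DKO minus WT) of each site against the distance of its midpoint from the nearest TSS of the gene in kb, negative upstream, with 1 panel per gene. Dashed lines mark 1.5-fold, red and blue points lie beyond it upward and downward, and a larger point is a site of higher mean concentration. The points at the TSSs lie near 0, and the 7 red and 2 blue points lie away from them.

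Levels per kb of site allow the sites nearest to the TSSs to be compared between genes, though that of Nr5a2 does not cover its TSS. In WT, the site nearest to the TSS had 300.4 mean normalized reads per kb at Zfp42, 182.9 at Tfcp2l1, 140.2 at Tbx3, 92.6 at Nr5a2 and 44.0 at Esrrb. In DKO these levels were 306.8, 181.6, 147.2, 89.5 and 46.2, in the same order. Without values per differentiation, neighbours in this order cannot be separated by their spread.

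The 7 sites that were higher in DKO had mean concentrations of 3.56 to 5.09, with a median of 3.98, against 5.00 over all listed sites. The Tfcp2l1 site was the only one above that. In WT the 7 sites had 7.94 to 22.9 mean normalized reads, and in DKO 15.7 to 49.2. The 15 sites not past the fold had WT concentrations of 4.14 to 7.42, which overlap those of the higher sites (2.99 to 4.52). Of the 7 higher sites, 4 had a mean concentration under 4. Differences spread more widely at low concentration: over all listed sites, 18.6% of those with a mean concentration of 3 to 4 were higher by over 1.5-fold, against 9.38% at 4 to 5 and 0.854% at 7 to 8. Without the sites under 4, 3 of 20 member sites were higher and 2 lower, beside 5.40% and 12.4% of the 60226 listed sites with a concentration of at least 4. At 2-fold, only the Tfcp2l1 intronic site was higher and only the Zfp42 site at 31.8 kb lower, while 3.01% and 6.35% of all listed sites passed that limit. The part of counting error in the smaller differences was not tested.

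**Figure D3:**
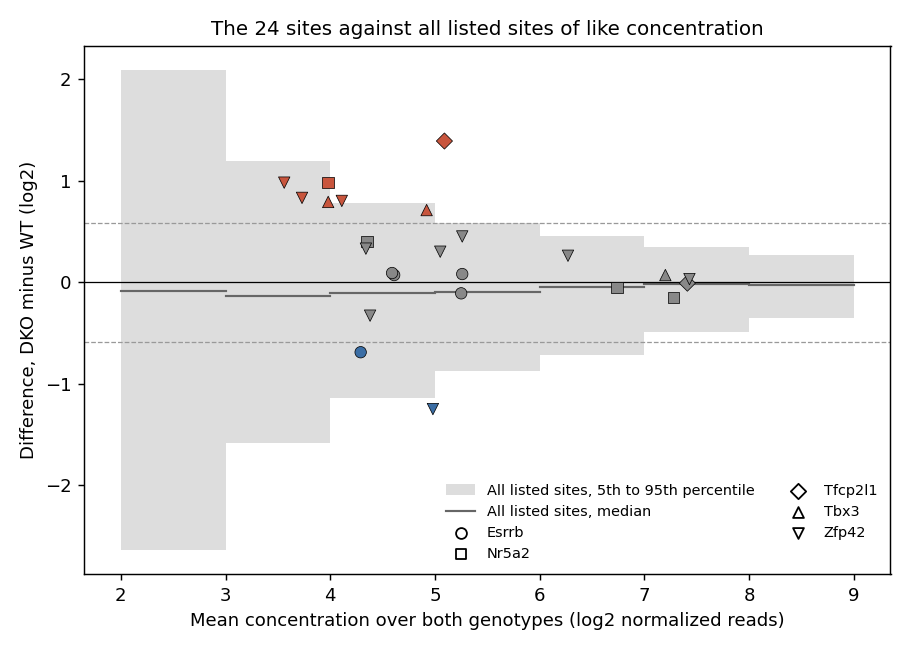
Difference in concentration (log2, Smad2/3 DKO minus WT) against mean concentration over both genotypes (log2 normalized reads) for the 24 sites, with marker shapes for the genes and colours as in the plot by position. Grey bands span the 5th to 95th percentile of all listed sites in each unit of concentration, dark lines their medians. The Tfcp2l1 site at 1.39 lies farthest outside its band, which ends at 0.58. The Zfp42 site at -1.25 is next, a little below its band, which ends at -1.14. Most of the other red points lie inside the bands.

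The 18 sites over 2 kb from their gene's TSS were also set against distal sites only. Among these 18, 7 were higher and 2 lower. Of the 49770 listed sites over 2 kb from any curated TSS with a mean concentration in the same range (3.56 to 7.28), 7.95% were higher and 17.5% lower. When these were restricted to the 26092 within 50 kb of a TSS, 2159 were higher and 3946 lower. These backgrounds were chosen after the data were seen. They match the range of concentrations and not the distribution within it. The 18 sites had a median concentration of 4.48. Over all listed sites, the share that was higher fell from 18.6% at 3 to 4 to 2.33% at 6 to 7.

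At 50 to 100 kb from the TSSs lay 11 further sites, of which 1 was higher and 5 were lower in DKO, beside the 8.51% and 16.0% of all listed sites. Nr5a2 accounts for the higher site and 4 of the lower ones. They include an intronic site 97.2 kb downstream (136856270 to 136856560), with 5.68 in WT and 4.47 in DKO, and an intergenic site 53.1 kb upstream (137013400 to 137013780), with 5.78 and 4.86. The remaining lower site, in an intron of Esrrb 77.4 kb downstream (86498790 to 86499250), had 5.52 and 4.78. Within 100 kb there were therefore 8 higher and 7 lower sites of 35, against 7 and 2 of 24 within 50 kb. From 50 kb to 1 Mb, the median difference was -0.22 around Esrrb, -0.08 around Nr5a2, 0.14 around Tfcp2l1, -0.19 around Tbx3, 0.01 around Zfp42 and -0.08 over all listed sites. The counts there were 7 higher and 15 lower of 78 around Esrrb, 12 and 21 of 84 around Nr5a2, 10 and 7 of 62 around Tfcp2l1, 1 and 7 of 35 around Tbx3, and 3 and 4 of 32 around Zfp42. The surroundings of Tfcp2l1 thus held more higher than lower sites, as the 24 sites did, and those of the other 4 genes more lower than higher ones. The difference between the windows was not tested.

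The 5 sites within 1 kb of a TSS had 3.50 to 8.03 CG dinucleotides per 100 bp, and the 7 higher sites 0.00 to 2.36. Distance alone did not separate these ranges. Among the other distal sites, values within the first range were found at Nr5a2 4.4 kb downstream (6.16), Zfp42 11.0 kb downstream (5.25) and Esrrb 11.9 and 48.5 kb downstream (4.12 and 5.76), all intragenic and not past the fold. The less accessible Esrrb site, with 6.49 per 100 bp and a GC content of 63.2%, also lay there, and the less accessible Zfp42 site, with 1.78, in the range of the higher sites. That range also held distal sites not past the fold. They were Nr5a2 43.5 kb upstream (0.00), Esrrb 49.5 kb downstream (1.53) and Zfp42 14.0, 21.9 and 26.8 kb upstream (1.48, 2.04 and 0.68). A low CG density thus did not set the higher sites apart, and the density over all listed sites was not computed.

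Exact matches to 11 short strings were then counted on both strands in 500 bp around the midpoint of each site. The Esrrb string TCAAGGTCA was found in 0 of the 24 sites (0.861% of all listed sites), and the Nr5a2 string TCAAGGCCA, which differs from it by 1 letter, in 1 (1.18%). That match lay in the Zfp42 TSS site, on the minus strand at position 254 of the sequence printed, after matches to GGAATG (Tead), GGGNGNGGC (Klf) and the POU octamer ATGCAAAT at positions 84, 196 and 223, counted from 1 at its 5′ end. No other site held 4 of the strings. In all, the octamer occurred in 2 sites (4.38% of all), the Klf string in 6 (24.6%), the Tead string in 7 (26.7%), GGATTA (Otx2) in 2 (14.4%) and CTTTGAT (Tcf/Lef) in 1 (7.16%). CATTGTNAT (Sox2 with Oct4, 1.67%), TTCCNGGAA (Stat3, 1.71%), TGTGGATT (FoxH1, 1.85%), whose end overlaps the Otx2 string, and GTCTAGAC (a Smad palindrome, 0.395%) occurred in 0. Among the 7 higher sites, the Klf string occurred in 2, at Tfcp2l1 and at Tbx3 38.8 kb downstream, where the Otx2 and Tcf/Lef strings also lay at positions 34 and 97 of the sequence printed. The Tead string occurred in 1, at Zfp42 24.9 kb upstream. The remaining 4 higher sites and both lower sites held none of the 11.

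For comparison, 14 other naive and general pluripotency genes (Klf2, Klf4, Klf5, Nanog, Prdm14, Dppa3, Fgf4, Gbx2, Tcl1, Stat3, Nr0b1, Sall4, Sox2 and Pou5f1) were taken by the same rule. They had 71 sites, at 13 of the genes, with a median difference of 0.01. Of these sites, 6 (8.45%) were higher and 11 (15.5%) lower, close to the 8.51% and 16.0% of all listed sites. The list was not uniform: the 3 Klf genes, grouped after their values were seen, had 3 higher and 0 lower of 14 sites, and the other 10 genes had 3 higher and 11 lower of 57. The genes with the largest differences at a site were Fgf4 (-2.61, where the nearest TSS is that of Fgf15), Pou5f1 (-1.70, nearest to Cchcr1) and Klf5 (1.26). The mean concentrations of those sites were 4.05, 4.62 and 4.75. A list of 7 primed genes (Fgf5, Otx2, Pou3f1, Foxd3, Dnmt3b, Zic2 and Sox3) had 59 sites, with a median difference of -0.12. Of these 59, 5 (8.47%) were higher and 14 (23.7%) lower, so the share of higher sites was also close to that of all listed sites. The largest differences on that list were at Pou3f1 (-1.76, nearest to Gm38545), Dnmt3b (1.51, nearest to Commd7) and Sox3 (1.43, nearest to Gm38438). These were weak sites, with mean concentrations of 3.51, 3.85 and 3.17. At concentrations of 3 to 4, the 5th to 95th percentile of all listed differences ran from -1.58 to 1.19. The difference between the 3 lists was not tested.

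**Figure D4:**
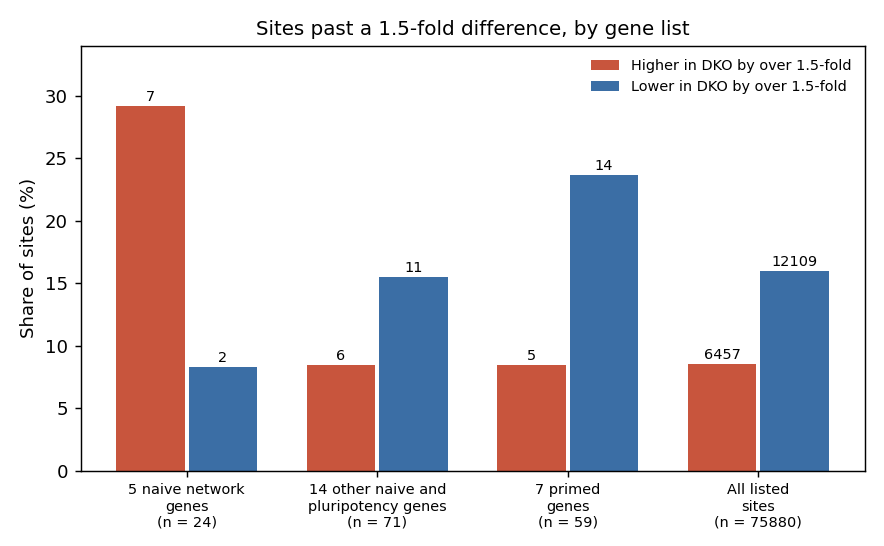
Share of sites (%) that were higher (red) or lower (blue) in Smad2/3 DKO than in WT EpiLCs by over 1.5-fold, for sites within 50 kb of the TSSs of the 5 naive network genes, 14 other naive and pluripotency genes and 7 primed genes, and for all listed sites. Numbers above the bars count sites, and the 5 genes have 7 higher and 2 lower of 24.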

How the data were processed

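Reads had been mapped to mm10 by the authors using Bowtie2. They kept unique alignments outside blacklisted regions, dropped PCR duplicates using SAMtools, and defined sites with DANPOS2 on the 3 differentiations against tagmented genomic DNA. DiffBind then gave normalized reads per site. Its version and normalization, and any shift of read ends to the Tn5 cut, are not given in the sources used here. A shift would move borders by a few bases, and the listed coordinates are multiples of 10 bp. The values used are log2 concentrations that the authors deposited, 1 mean per genotype and 1 over both. There are no values per library, so the depth and replicate spread are unknown, and no interval or p-value is given. The table also holds the authors' own comparison (fold, p-value and FDR), which was not used.

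Midpoints were placed on 31647 curated RefSeq TSSs of 26180 genes (GRCm38.p6). The fold follows the study's methods. Named sites are those past 1.5-fold, nearest to the TSS, or of highest concentration at each gene. On the other lists, at most the 3 genes with the largest differences are named. The members, lists and motif strings were chosen with earlier results of these data known. The alternatives were a 2-fold limit, other windows, site assignment and transcripts, centring, a minimum concentration of 4, 1 added read and whole sites for motifs. The 2 distal backgrounds and the one limited to concentrations from 4 upward were added after the data were seen. The searches were tested on simulated data. Python 3.11.15, numpy 2.4.6, pandas 2.3.3 and matplotlib 3.10.9 were used.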

Additional observations from a re-analysis of the deposited data

How the results depend on the processing

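The counts of 7 higher and 2 lower sites and the median of 0.18 over the 5 genes rest on the limit, the window and the low sites. With a 2-fold limit, 1 site was higher and 1 lower. A 10 kb window gave 3 higher and 0 lower sites and a median of 0.07, and a 100 kb window gave 7 lower sites and a median of 0.07. Requiring a mean concentration of at least 4 left 3 higher sites. These settings change which sites, or how large a difference, are counted. The other 15 of 23 values over the 5 genes, which include those after centring on the median of all sites and after adding 1 read to each genotype, stayed within 1.5 times for counts or 0.1 for medians. Among the values within these limits, the median of 0.18 fell to 0.08 with all RefSeq transcripts and at a concentration of at least 4. It was also 0.08 when only sites whose nearest TSS is the member gene's were kept. All 9 sites past the fold were still past it after centring and after adding 1 read, and 0 others passed. Of 115 values for single genes, 26 moved by more than the limits of 1.5 times or 0.1. A further value, the Tfcp2l1 median, fell from 0.69 to -0.01 in the 10 kb window, where its TSS site is the only one. The Nr5a2 median of 0.18 became -0.05 in the 10 kb window and at a concentration of at least 4, and -0.15 in the 100 kb window. The Esrrb median of 0.07 became -0.11 in the 100 kb window and -0.02 with all RefSeq transcripts. The medians of Tfcp2l1, Nr5a2 and Esrrb thus changed sign in some settings. At Tbx3, 0 sites were higher when only sites whose nearest TSS is its own were kept. The 4 shares of distal backgrounds stayed within 1.5 times of those of all sites, and of the shares at a concentration of at least 4, that of higher sites was 5.40%, against 8.51% of all sites.

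No paired analysis was possible because the columns give 1 mean per genotype, and for the same reason there are no values without single replicates. The depth per library is unknown here.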
